A study of Mus musculus with 17 samples.

Results

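Acute phase genes are described here in whole kidney, as 10 genes chosen by symbol: the serum amyloid A genes Saa1, Saa2 and Saa3, the carriers Hp and Cp, the binding and inhibitor proteins Lbp, Orm1, Serpina3n and Lrg1, and the receptor Osmr. All 10 were found among the 22558 genes used. RNA was sequenced from the kidneys of 17 male mice, 1 library per mouse. Ctrl was 5 C57BL/6 mice given saline. Case was 6 db/db mice given saline, of the stock BKS.Cg-Dock7m +/+ Leprdb/J, which have a defective leptin receptor. Dapa was 6 db/db mice of the same kind that received dapagliflozin, which blocks the renal glucose transporter SGLT2. It was gavaged daily at 1 mg/kg. Mice of all 3 groups were 8 weeks old at the start, and saline or drug was given for 6 weeks. Because Ctrl mice were of another strain, the diabetic genotype and the strain background cannot be told apart in comparisons with Ctrl. In these whole-organ samples more cells of a type and more RNA per cell cannot be told apart either.

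The acute phase response is the change in secreted proteins that follows infection or tissue injury. Interleukin-6, interleukin-1 and oncostatin M start it, largely in hepatocytes, through the receptor subunit gp130 with STAT3 and through NF-kB, often together with C/EBP factors. Many of its genes are also transcribed outside the liver, and in the kidney they are known from injured tubules and from inflamed tissue.

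The libraries held 13039535 to 17779635 counts, and 17.9% to 27.6% of them fell on mitochondrial genes. Levels are given as FPKM, fragments scaled by gene length and library total, which the authors deposited beside the counts, so they can be compared between genes. In 7 libraries (Ctrl 1, 3 and 4, Case 1, Dapa 10, 11 and 12) the FPKM of 3 entries that are no members did not match their counts, and a term for these libraries was tried in each fit. Markers of kidney epithelium were present throughout, with all 14 listed genes above 0 in each group and sums of 2282 to 4014 FPKM per mouse. Lepr, the gene mutated in db/db mice, was read at 0.464 to 1.93 FPKM in Ctrl, 0.659 to 5.40 in Case and 0.417 to 4.85 in Dapa. The db mutation alters splicing, so this level does not test the labels.

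The 3 serum amyloid genes lie in 1 cluster on chromosome 7, and Saa1 and Saa2 are near copies, which limits how far their reads can be told apart. In mm10 Saa3 was placed at chr7:46711998-46715676, Saa1 at chr7:46740501-46742980 and Saa2 at chr7:46751833-46754314. Of all 50-base stretches in Saa1 transcripts (GENCODE vM21), 31.1% also occur in Saa2, and 30.0% of those of Saa2 occur in Saa1, so the split of reads between them is uncertain. For Orm1 20.4% of the stretches are shared with Orm2, for Serpina3n 6.90% with other genes, for Saa3 4.15%, and for the other 5 members at most 0.618%. The 250 bases before the start site are printed for the serum amyloid genes, Lrg1 and Cp, because these members peaked in the same mice. They are RefSeq sequences (GRCm38.p6), taken from a table that held 7 of the 10 members and not Hp, Orm1 and Lbp. Capitals mark matches to TTGCNNAA (the letters bound by C/EBP factors), GGG, then any 3 bases, then TTCC (NF-kB) or TTCNNNGAA (STAT factors), searched on both strands.
Saa1 (chr7:46742981-46743230, minus strand): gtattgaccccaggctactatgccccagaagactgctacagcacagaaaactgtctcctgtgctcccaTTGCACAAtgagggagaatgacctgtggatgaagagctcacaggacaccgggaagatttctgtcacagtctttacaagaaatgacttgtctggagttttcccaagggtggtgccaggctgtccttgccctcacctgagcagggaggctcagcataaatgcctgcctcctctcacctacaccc
Saa2 (chr7:46751583-46751832, plus strand): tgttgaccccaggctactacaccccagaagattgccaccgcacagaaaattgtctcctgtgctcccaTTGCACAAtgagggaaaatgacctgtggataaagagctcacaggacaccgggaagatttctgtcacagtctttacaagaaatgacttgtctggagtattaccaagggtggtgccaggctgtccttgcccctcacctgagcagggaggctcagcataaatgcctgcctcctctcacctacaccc
Saa3 (chr7:46715677-46715926, minus strand): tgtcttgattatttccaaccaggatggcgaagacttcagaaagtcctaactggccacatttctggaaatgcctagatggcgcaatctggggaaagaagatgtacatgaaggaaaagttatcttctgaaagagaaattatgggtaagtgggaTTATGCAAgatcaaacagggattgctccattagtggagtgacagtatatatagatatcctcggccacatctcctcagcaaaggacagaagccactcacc
Lrg1 (chr17:56121947-56122196, minus strand): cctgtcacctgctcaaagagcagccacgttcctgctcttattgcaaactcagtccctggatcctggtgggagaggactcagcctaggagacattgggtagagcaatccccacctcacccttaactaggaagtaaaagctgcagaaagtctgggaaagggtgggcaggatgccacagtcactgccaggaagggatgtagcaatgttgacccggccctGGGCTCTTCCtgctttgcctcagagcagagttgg
Cp, upstream entry (chr3:19956804-19957053, plus strand): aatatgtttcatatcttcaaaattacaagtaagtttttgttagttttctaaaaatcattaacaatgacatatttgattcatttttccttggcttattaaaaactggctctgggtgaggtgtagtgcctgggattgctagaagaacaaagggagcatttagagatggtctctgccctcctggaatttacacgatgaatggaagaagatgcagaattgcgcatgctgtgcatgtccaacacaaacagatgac
Cp, downstream entry (chr3:19956999-19957248, plus strand): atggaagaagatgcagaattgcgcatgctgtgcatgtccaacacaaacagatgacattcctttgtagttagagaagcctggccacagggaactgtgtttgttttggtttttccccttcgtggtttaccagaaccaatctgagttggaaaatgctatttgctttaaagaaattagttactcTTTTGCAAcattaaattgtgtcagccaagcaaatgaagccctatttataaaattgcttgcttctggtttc

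The Saa1 and Saa2 stretches matched at 94.8% of aligned positions, and Saa3 matched Saa1 at 48.2%. The C/EBP letters were found in Saa1 from position −182 to −175, in Saa2 from −183 to −176 and in Saa3 from −99 to −92, counted back from the start site. They were also found in the downstream of the 2 entries of Cp, which overlap, from −70 to −63. The NF-kB letters were found in Lrg1 from −34 to −25 and in Serpina3n from −171 to −162. The STAT letters were in none of the 7 genes' windows, and Osmr held none of the 3. No match overlapped another. Of all 32851 windows of this length, 9.56% held the C/EBP letters, 4.65% the NF-kB letters and 7.02% the STAT letters. Such a match is a run of letters and says nothing of binding.

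All members were of low to moderate level in kidney. Averaged over the 17 mice, Cp was at 3.44 FPKM, Lrg1 at 3.36, Saa1 at 3.15, Hp at 2.55, Osmr at 0.951, Lbp at 0.844, Orm1 at 0.597, Serpina3n at 0.577, Saa2 at 0.341 and Saa3 at 0.261. The mean of Cp was above that of 67.2% of the genes used and the mean of Saa3 above that of 36.1%. The mean of Saa1 stands for few mice, since its highest and lowest values were 34.3 and 0.

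**Figure D1:**
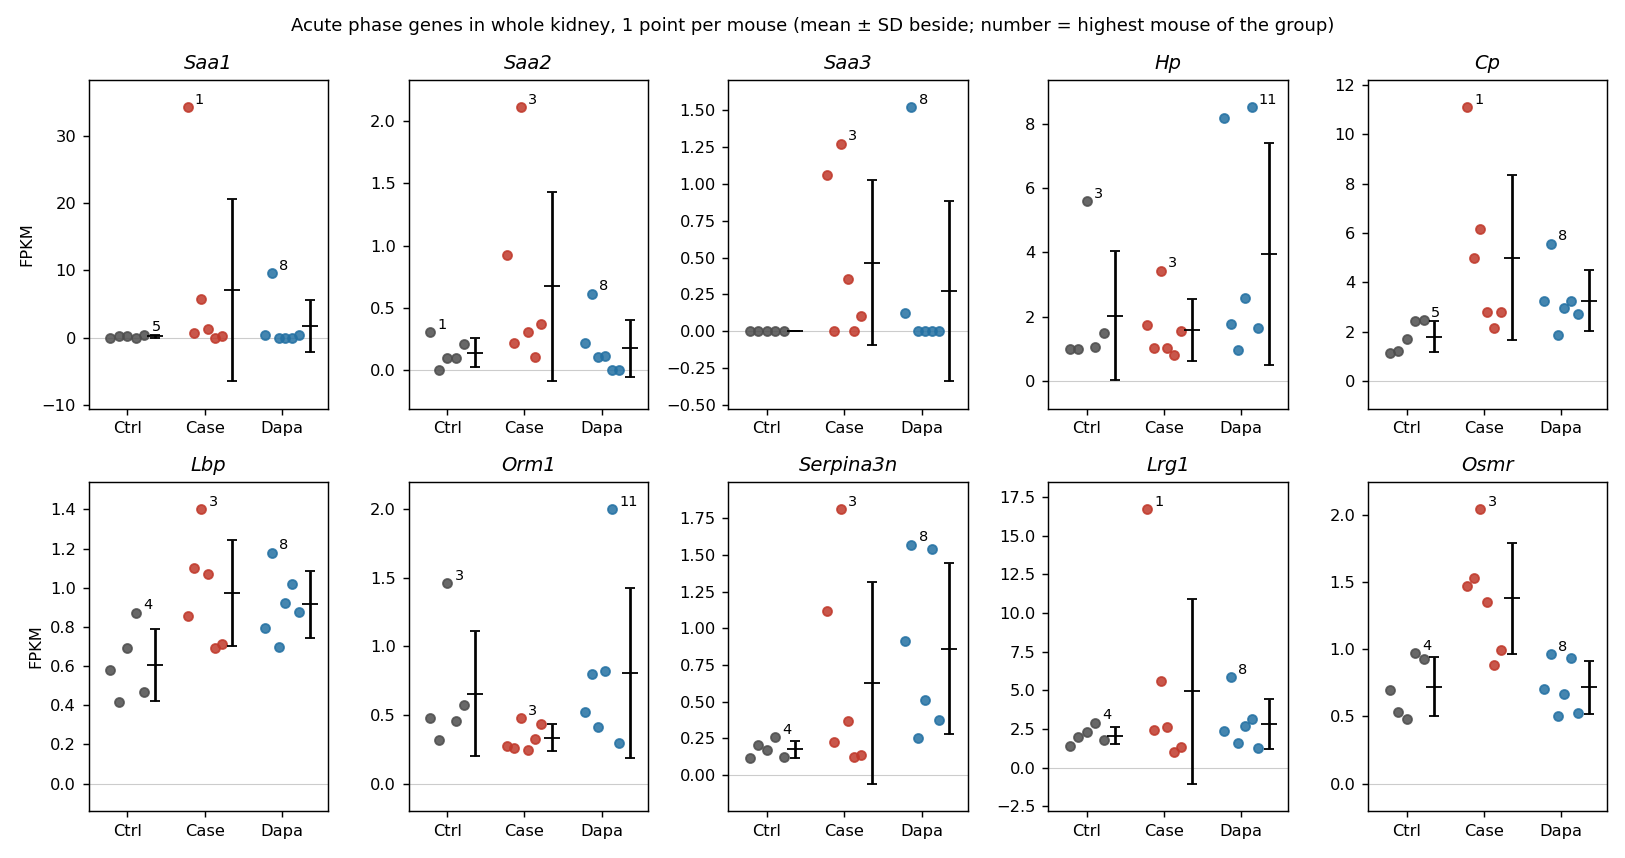
FPKM of the 10 genes (vertical axes, linear, one scale per gene) in each mouse of Ctrl, Case and Dapa, with the group mean ± SD in black and the number of the highest mouse of each group. The spread within a group was wide: Saa1 reached 34.3 in Case 1 and 9.55 in Dapa 8, and Hp reached 8.51 in Dapa 11 and 5.59 in Ctrl 3.

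Saa1 encodes a serum amyloid A protein carried on high-density lipoprotein. Its FPKM in Case was 34.3, 0.658, 5.78, 1.25, 0 and 0.279 in mice 1 to 6. In Dapa it was 0.445, 9.55, 0, 0, 0 and 0.380 in mice 7 to 12, and in Ctrl 0, 0.202, 0.295, 0 and 0.420. Case 1, Case 3 and Dapa 8 were thus well above all other mice, while Case 5 was listed at 0 like 2 Ctrl and 3 Dapa mice. The Case mean of 7.04 ± 13.5 (SD, n = 6) drew 81.1% of its sum from Case 1 and was 1.59 without that mouse. The Dapa mean of 1.73 ± 3.84 (SD, n = 6) drew 92.0% from Dapa 8 and was 0.165 without it. Ctrl was at 0.183 ± 0.184 (SD, n = 5).

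Saa2, the neighbouring copy, was at 0.922, 0.218, 2.11, 0.309, 0.104 and 0.369 FPKM in Case 1 to 6. In Dapa it was at 0.220, 0.611, 0.105, 0.116, 0 and 0, and in Ctrl at 0.303, 0, 0.0976, 0.0970 and 0.208. The same 3 mice were the highest. The most counts any library gave for Saa2 were 21, in Case 3. In Case 1, 94.5% of the summed FPKM of the 3 serum amyloid genes came from Saa1, against 63.1% in Case 3 and 81.7% in Dapa 8.

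Saa3 is the member of the family that mice transcribe mainly outside the liver. No read was counted for it in any Ctrl mouse. Case held 8, 0, 11, 3, 0 and 1 counts in mice 1 to 6, and Dapa 1, 13, 0, 0, 0 and 0 in mice 7 to 12. Pooled over the group, the rate in Case was 6.62 times that of the 3 counts that a Ctrl count of 0 allows, and the rate in Dapa 4.39 times. These ratios allow for counting error in Ctrl but not in Case or Dapa, nor for the spread between mice. Of the 14 Dapa counts 13 were in 1 mouse, Dapa 8, and of the 23 Case counts 11 were in Case 3. Without these mice the mean FPKM was 0.0253 instead of 0.275 in Dapa and 0.304 instead of 0.465 in Case.

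Hp encodes haptoglobin, which binds free hemoglobin. Its FPKM was 1.01, 0.999, 5.59, 1.06 and 1.51 in Ctrl 1 to 5. In Case it was 1.73, 1.04, 3.42, 1.03, 0.803 and 1.55, and in Dapa 8.16, 1.76, 0.956, 2.58, 8.51 and 1.66. Dapa 7, Dapa 11 and Ctrl 3 were the highest, a different set of mice from that of Saa1. The group means were 2.03 ± 2.00 (SD, n = 5) in Ctrl, 1.60 ± 0.961 (SD, n = 6) in Case. Dapa was at 3.94 ± 3.45 (SD, n = 6).

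Cp encodes ceruloplasmin, the copper-binding ferroxidase of plasma, and was the best measured member with 272 to 2301 counts per library. Its FPKM was 1.15, 1.23, 1.71, 2.42 and 2.46 in Ctrl. In Case it was 11.1, 4.99, 6.15, 2.82, 2.14 and 2.81, and in Dapa 3.24, 5.56, 1.87, 2.95, 3.26 and 2.72. Only Case 5 and Dapa 9 fell within the Ctrl range. Case 1, Case 3 and Dapa 8 were again the 3 highest.

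Lbp encodes the lipopolysaccharide-binding protein, which hands bacterial lipopolysaccharide to CD14. It varied least among the members together with Osmr. Lbp was at 0.579, 0.416, 0.692, 0.872 and 0.468 FPKM in Ctrl, at 0.855, 1.10, 1.40, 1.07, 0.690 and 0.715 in Case and at 0.793, 1.18, 0.698, 0.924, 1.02 and 0.876 in Dapa. All 12 db/db mice were above the Ctrl median of 0.579, but the ranges overlapped.

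Orm1 encodes alpha-1-acid glycoprotein and was counted at no more than 21 reads in a library. Its FPKM was 0.477, 0.315, 1.46, 0.458 and 0.573 in Ctrl, 0.272, 0.257, 0.475, 0.244, 0.327 and 0.435 in Case, and 0.521, 0.802, 0.414, 0.820, 2.00 and 0.297 in Dapa. Dapa 11 and Ctrl 3 stood highest. Both were also among the 3 highest for Hp, but Dapa 7, the other of those, was not high in Orm1. All 6 Case mice were below the Ctrl median of 0.477.

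Serpina3n encodes a serine protease inhibitor. It was at 0.119, 0.207, 0.173, 0.258 and 0.123 FPKM in Ctrl. In Case it was at 1.12, 0.225, 1.81, 0.366, 0.123 and 0.136, and in Dapa at 0.912, 1.57, 0.249, 0.513, 1.54 and 0.372. It was high both in mice with high Saa1 (Case 1, Case 3, Dapa 8) and in mice with high Hp (Dapa 7, Dapa 11), and 5 of 6 Dapa mice lay above every Ctrl mouse. Its counts were 4 to 61 per library.

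Lrg1 encodes a leucine-rich secreted glycoprotein that acts on TGF-beta signalling in vessels. Its FPKM was 1.41, 1.99, 2.29, 2.89 and 1.78 in Ctrl, 16.7, 2.41, 5.63, 2.66, 0.986 and 1.37 in Case, and 2.39, 5.84, 1.61, 2.72, 3.17 and 1.25 in Dapa. Case 1 alone gave 56.1% of the Case sum. Without it the Case mean was 2.61 instead of 4.96, against 2.07 ± 0.557 (SD, n = 5) in Ctrl.

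Osmr encodes the subunit that joins gp130 in the oncostatin M receptor, and is the 1 member that is not secreted. Its FPKM was 0.695, 0.535, 0.481, 0.969 and 0.924 in Ctrl, 1.47, 1.53, 2.04, 1.35, 0.884 and 0.991 in Case, and 0.707, 0.961, 0.501, 0.664, 0.935 and 0.524 in Dapa. Of the 6 Case mice, 5 were above every Ctrl and every Dapa mouse. The means of Ctrl, 0.721 ± 0.221 (SD, n = 5), and Dapa, 0.715 ± 0.197 (SD, n = 6), were about the same, and that of Case was 1.38 ± 0.417 (SD, n = 6).

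**Figure D2:**
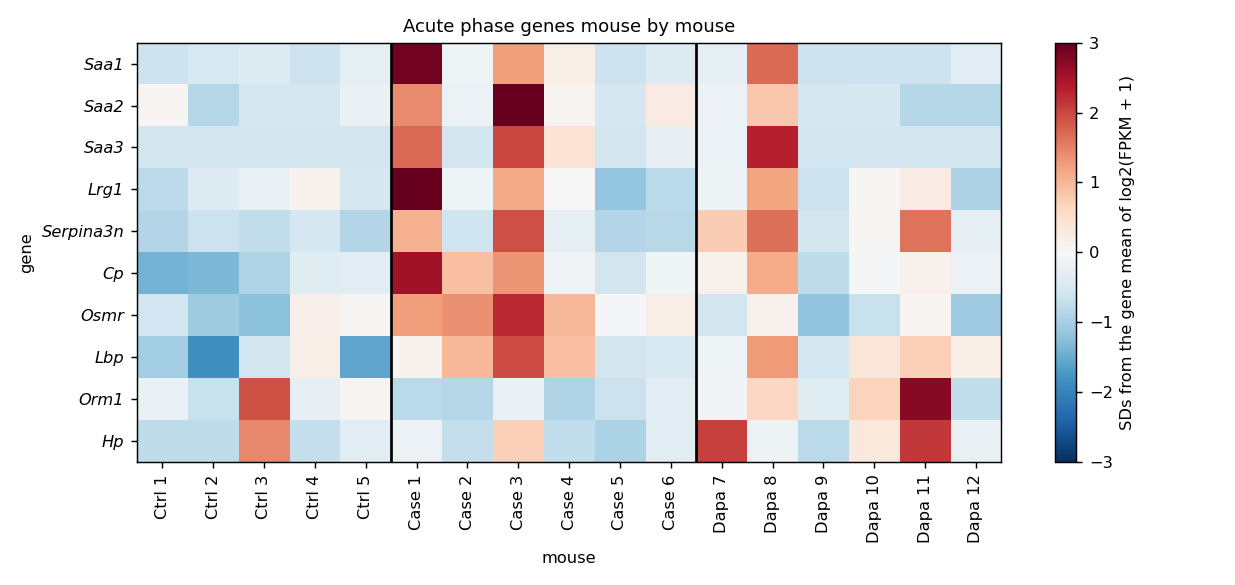
Each gene (rows) in each of the 17 mice (columns, black lines between Ctrl, Case and Dapa), as log2(FPKM + 1) in SDs from the mean of the gene. Case 1, Case 3 and Dapa 8 are high in Saa1, Saa2, Saa3, Lrg1 and Cp, whereas Hp and Orm1 are highest in Dapa 11 and also high in Ctrl 3.

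Mouse by mouse, the members fell into unlike patterns. Case 3 was among the 3 highest mice for 8 of the 10 members, Dapa 8 for 7 and Case 1 for 6. Of the other 14 mice, Dapa 11 was among them for 3 members, Case 2 and Ctrl 3 for 2 each, Dapa 7 and Dapa 10 for 1 each and the rest for none. After group means were subtracted from log2(FPKM + 1), Saa1 and Saa3 had a Spearman rho of 0.94 over the 17 mice, Serpina3n and Lrg1 of 0.90, Cp and Osmr of 0.83 and Cp and Lrg1 of 0.81. Hp and Orm1 had a rho of 0.64 with each other, and of 0.22 and 0.01 with Saa1. All genes of a mouse share its library, and these values are a description.

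Case was compared with Ctrl to ask how these genes differ in untreated diabetic kidneys. Cp and Osmr were higher in Case. Cp was higher by 1.40 ± 0.39 (SE) on the log2 scale, a 2.63-fold difference with q = 0.0342, and Osmr by 0.85 ± 0.22 (SE), a 1.80-fold difference with q = 0.0256 (edgeR quasi-likelihood test, q adjusted over all genes by Benjamini-Hochberg). All 6 Case mice were above the Ctrl median in both, and 5 of 6 above every Ctrl mouse. These were the 2 calls among the 5 members that passed the count filter. Over all 14582 genes tested, 13.0% were called and 6.09% were called higher and 6.91% lower. At an unadjusted p under 0.05 stood 3 of the 5, beside 28.7% of all genes tested. None of these 5 members had groups without overlap, against 8.43% of all genes tested. Their median log2 fold change was 0.85, beside 0.03 over all genes.

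Lrg1, Lbp and Hp passed the filter and were not called in Case against Ctrl. Their log2 fold changes were 1.16 ± 0.62 (SE, q = 0.239), 0.59 ± 0.23 (SE, q = 0.107) and −0.44 ± 0.52 (SE, q = 0.615). Without Case 1 the value of Lrg1 was 0.22, and without Ctrl 3 that of Hp was 0.39. The other 5 members had too few counts for the filter. Exact two-sided permutation tests on log2(FPKM + 1), in which the smallest possible p is 0.00216, gave p = 0.115 for Saa1, p = 0.0758 for Saa2, p = 0.106 for Saa3, p = 0.214 for Serpina3n and p = 0.0303 for Orm1, which was lower in Case, with a difference of −0.28 on this scale, and had p = 0.0524 to 0.0905 when Ctrl 3 or 5 or Case 1, 2, 4 or 5 was left out. Without Ctrl 3 its difference was −0.13. Leaving out Case 5 gave exact permutation p-values of 0.0238 for Saa1, 0.0159 for Saa2 and 0.0476 for Saa3, and leaving out Case 2 gave 0.0397 for Saa2 and 0.0476 for Saa3. Without Case 1 the difference in Saa1 was 0.77 instead of 1.46, and without Case 3 that in Saa2 was 0.26 instead of 0.46. These p-values were not adjusted. Fitted without the filter in edgeR, Saa1 differed by 5.08 on the log2 scale with q = 0.0503, and in DESeq2 by 5.17 with an adjusted p of 0.0149.

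Both calls lay close to the threshold. With a term for the 7 libraries q was 0.0564 for Osmr and 0.0260 for Cp. In the 10 other libraries Osmr was at 0.535 to 0.924 FPKM in 2 Ctrl and 0.884 to 2.04 in 5 Case mice, and among the 7 at 0.481 to 0.969 in 3 Ctrl mice and at 1.47 in the 1 Case mouse. Leaving out Ctrl 1, 2, 3 or 5 or Case 2 or 3 gave a q of 0.0524 to 0.0862 for Cp, and leaving out Ctrl 1, 2 or 3 or Case 2 gave 0.0501 to 0.0672 for Osmr. Without Case 1 the log2 fold change of Cp was 0.98 (q = 0.0473) instead of 1.40.

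Dapa was compared with Case to ask what changed with dapagliflozin in db/db mice. No member was called by edgeR's quasi-likelihood test, and neither was any other of the 14573 genes tested (0%). At an unadjusted p under 0.05 stood 2 of the 6 members that passed the filter, Osmr and Hp, beside 12.9% of all genes tested. The lowest q of any gene was 0.173. Osmr was lower in Dapa by 0.96 ± 0.20 (SE) on the log2 scale (q = 0.179), a level 0.514 times that of Case, and all 6 Dapa mice were below the Case median. DESeq2 called it with an adjusted p of 0.00413 and edgeR's exact test with a q of 0.00596, tools that called 200 and 129 genes in all.

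Of the other members, Hp was higher in Dapa by 1.27 ± 0.53 (SE, q = 0.347). Cp stood at a log2 fold change of −0.63 ± 0.36 (SE, q = 0.461), Lrg1 at −0.82 ± 0.61 (q = 0.581), Lbp at −0.10 ± 0.19 (q = 0.850) and Serpina3n at 0.44 ± 0.65 (q = 0.801). Without Case 1 that of Lrg1 was 0.12 and that of Cp −0.22, so the lower Dapa mean of Lrg1 rested on that mouse. That of Serpina3n was 0.18 to 1.09 with 1 mouse left out, the highest without Case 3 and the lowest without Dapa 8. The members that failed the filter gave exact permutation p-values of 0.335 for Saa1, 0.119 for Saa2, 0.535 for Saa3 and 0.0303 for Orm1, which was higher in Dapa by 0.38 on log2(FPKM + 1). Without Dapa 11 that difference was 0.22 with an exact permutation p of 0.0541, and without Case 1, 2, 4 or 5 the p was 0.0584 to 0.0714. Without Case 1 the difference in Saa1 was −0.27 instead of −0.96, and the difference in Saa2 was −0.43, with −0.52 (exact permutation p = 0.0433) without Dapa 8 and −0.23 (exact permutation p = 0.216) without Case 3. No groups were free of overlap among the 6 members tested, against 0.480% of all genes tested. The median log2 fold change of these 6 was −0.36, beside −0.01 over all genes.

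Dapa was also compared with Ctrl, which asks how treated diabetic kidneys stand beside those of non-diabetic mice. Serpina3n was higher in Dapa by 2.14 ± 0.51 (SE) on the log2 scale, 4.42-fold, with q = 0.00798 in edgeR's quasi-likelihood test. It passed the count filter through the Dapa mice alone, where it was high, since Ctrl held 4 to 9 counts. Fitted without the filter, over all genes with a count, it differed by 2.15 with q = 0.00914. Cp was higher by 0.76 ± 0.26 (SE), 1.70-fold, with q = 0.0402. All 6 Dapa mice were above the Ctrl median in both genes. These were the calls among the 6 members tested, a count that is no support for the members as a group because of how Serpina3n entered it, and with at least 10 counts required in every sample Cp alone was called. Over all genes, 29.1% of the 14647 genes tested were called and 14.2% were called higher and 14.9% lower. At an unadjusted p under 0.05 stood 3 of the 6, beside 41.1% of all genes tested. No member tested had groups without overlap, against 14.5% of all genes tested.

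Lbp had a log2 fold change of 0.49 ± 0.21 (SE, q = 0.101) in Dapa against Ctrl, Hp of 0.82 ± 0.64 (q = 0.356), Lrg1 of 0.34 ± 0.34 (q = 0.482) and Osmr of −0.12 ± 0.22 (q = 0.717). Without Ctrl 3 the value of Hp was 1.67 (q = 0.0629), without Dapa 7 or 11 it was 0.47 or 0.46, and without Dapa 8 that of Lrg1 was 0.00. Saa1, Saa2, Saa3 and Orm1 failed the filter, with exact permutation p-values of 0.695, 0.851, 0.455 and 0.643. The call of Cp was lost without Ctrl 1, 2 or 3 or Dapa 8, 10 or 11 (q of 0.0581 to 0.0908), and with the term for the 7 libraries (q = 0.0503). Serpina3n had too few counts to be tested when any Dapa mouse other than Dapa 9 was left out. Case and Dapa were both set against the same Ctrl mice, so these comparisons are not independent of each other.

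**Figure D3:**
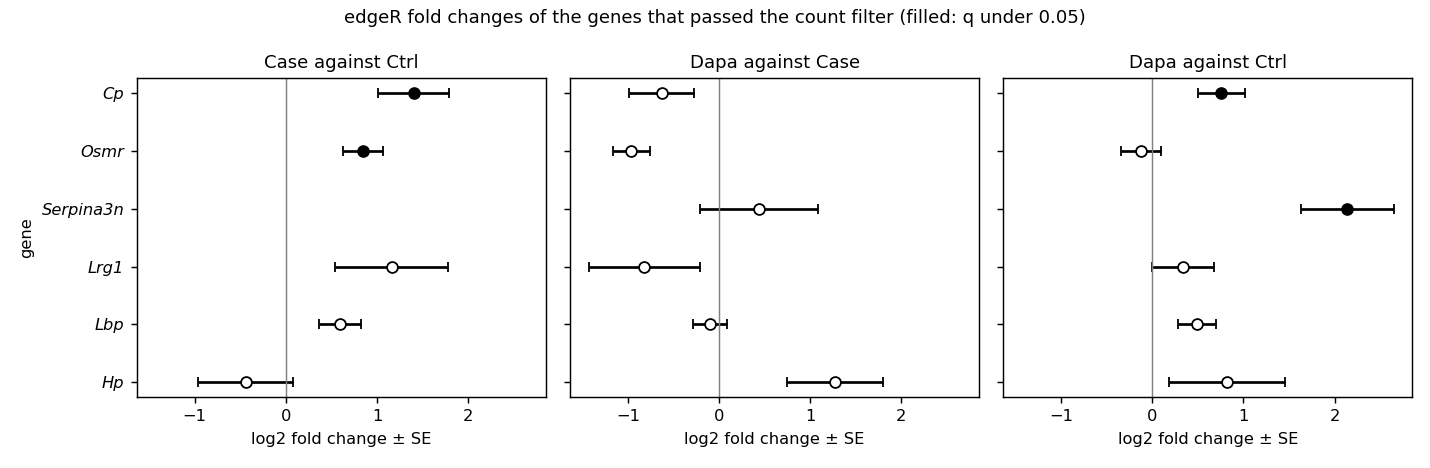
Log2 fold change ± SE from edgeR for the members that passed the count filter, in the 3 comparisons, with filled points at q under 0.05. Cp (1.40) and Osmr (0.85) were called in Case against Ctrl and Cp (0.76) and Serpina3n (2.14) in Dapa against Ctrl, where Serpina3n passed the filter through its Dapa counts alone. No member was called in Dapa against Case.

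Markers of other cell types moved with both patterns. In the mice with high Saa1 the summed FPKM of the 12 neutrophil markers in the table was 15.3 (Case 1), 22.1 (Case 3) and 9.70 (Dapa 8), and in the other 14 mice it was 0.234 to 3.11. It ranged from 0.234 to 2.79 in Ctrl, 0.919 to 22.1 in Case and 0.908 to 9.70 in Dapa, with 8 of the 12 above 0 in Ctrl, 11 in Case and 11 in Dapa. S100a9 was at 7.72, 10.4 and 4.35 in Case 1, Case 3 and Dapa 8 and S100a8 at 2.86, 2.87 and 1.58, which is much of their sums. Ly6g, a defining neutrophil marker, was at 0 in all Ctrl and Dapa mice and at 0.0960 and 0.197 in Case 3 and Case 4. The sum of 15 macrophage markers, all of them above 0 in every group, was 206 in Case 3 and 31.0 to 69.2 in the other 16 mice. It was 31.0 to 52.2 in Ctrl, 31.1 to 206 in Case and 32.0 to 69.2 in Dapa. Osmr, too, was highest in Case 3, and over the 17 mice, group means subtracted, it had a Spearman rho of 0.73 with the macrophage sum and of 0.62 with the neutrophil sum, while Cp had 0.76 and 0.55. Nephron markers also stood apart in Case 1 and Case 3. Slc34a1, the phosphate transporter of the proximal tubule, was at 839 and 848 FPKM there and at 1047 to 1805 in the other 15 mice, and Umod, the uromodulin gene of the thick ascending limb, was at 1983 and 2221 against 317 to 1342. Dapa 8 lay within the range of the others in both (1354 and 1156). Slc5a2, which encodes SGLT2, was at 26.4 in Case 1, 42.7 in Case 3, 48.0 in Dapa 8 and 40.2 to 85.3 in the rest. The part of such cells, or of the nephron segments sampled, in the serum amyloid, Cp, Lrg1, Osmr and other member values was not tested.

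The mice with high Hp differed in another way. Adipoq, the adipocyte hormone adiponectin, was at 9.83 FPKM in Ctrl 3, 3.11 in Dapa 7, 2.81 in Dapa 11, 0.927 in Dapa 10 and 0.0959 in Dapa 12, and was listed at 0 in the other 12 mice, all of Case among them. Cfd, another adipocyte gene, was at 52.4 in Ctrl 3, 4.95 in Dapa 11, 3.79 in Dapa 7, 0.689 in Dapa 10 and at most 0.332 elsewhere. The sum of 15 adipocyte markers was 83.2 to 214 in Ctrl, 54.0 to 72.8 in Case and 65.1 to 126 in Dapa, with 10 of the 15 above 0 in Case and all 15 in the other groups. Without the 4 mice with Adipoq above 0.5 FPKM, Hp was at 1.14 ± 0.247 (SD, n = 4) in Ctrl, 1.46 ± 0.437 (SD, n = 3) in Dapa and, as before, 1.60 ± 0.961 (SD, n = 6) in Case, and its log2 fold change in Dapa against Case was −0.14 (q = 0.963) instead of 1.27. Orm1 was then at 0.456 ± 0.107 (SD, n = 4), 0.335 ± 0.0980 (SD, n = 6) and 0.504 ± 0.264 (SD, n = 3). In this subset no member was called by edgeR in any of the 3 comparisons. The fold changes of Cp and Osmr stayed close to those of all mice in the comparisons where they had been called. That of Osmr in Dapa against Ctrl was −0.32 (q = 0.485) instead of −0.12. In Case against Ctrl the log2 fold change of Cp was 1.38 (q = 0.0784) and that of Osmr 0.74 (q = 0.0668), and in Dapa against Ctrl that of Cp was 0.82 (q = 0.186), while Serpina3n was too low there to be tested. An unadjusted p under 0.05 was reached by 3 of 5 members in Case against Ctrl, beside 3568 of all 14725 genes tested. It was reached by 1 of 7 with Dapa set against Case, beside 1076 of 15038, and by 0 of 5 with Dapa set against Ctrl, beside 4271 of 14702. The sum of 12 fibroblast and mural markers, all above 0 in every group, was 22.6 to 45.8 in Ctrl, 33.1 to 59.8 in Case and 31.6 to 81.8 in Dapa. It was 45.8 in Ctrl 3, 56.8 in Dapa 7 and 81.8 in both Dapa 10 and Dapa 11, and its rho was 0.72 with Orm1 and 0.65 with Hp, beside 0.61 and 0.81 for the adipocyte sum. Whether fat or stromal tissue contributed to the Hp and Orm1 values was not tested.

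Other tissues were read out in the same way. The sum of 20 hepatocyte markers was 65.3 to 116 in Ctrl, 137 to 466 in Case and 68.6 to 197 in Dapa. Fga, which is itself an acute phase gene, reached 180 in Case 1. Case 6 had a sum of 137, above every Ctrl mouse, with Fga at 6.32, inside its Ctrl range of 4.66 to 9.68. Alb, the defining hepatocyte transcript, was at 7.18 to 16.6 in all 17 mice and Cyp7a1 was at 0 in Ctrl and Case. Group means subtracted, the hepatocyte sum had a Spearman rho of 0.64 with Lrg1, 0.62 with Cp and, lowest of the members, 0.12 with Orm1. The part of the other listed genes in these sums, and of liver RNA in the member values, was not tested. Sums of 12 endothelial markers were 81.9 to 141 in Ctrl, 106 to 155 in Case and 103 to 194 in Dapa. Those of the 6 adrenal markers found were 2.58 to 3.88 in Ctrl, 3.84 to 8.82 in Case and 2.82 to 11.6 in Dapa.

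**Figure D4:**
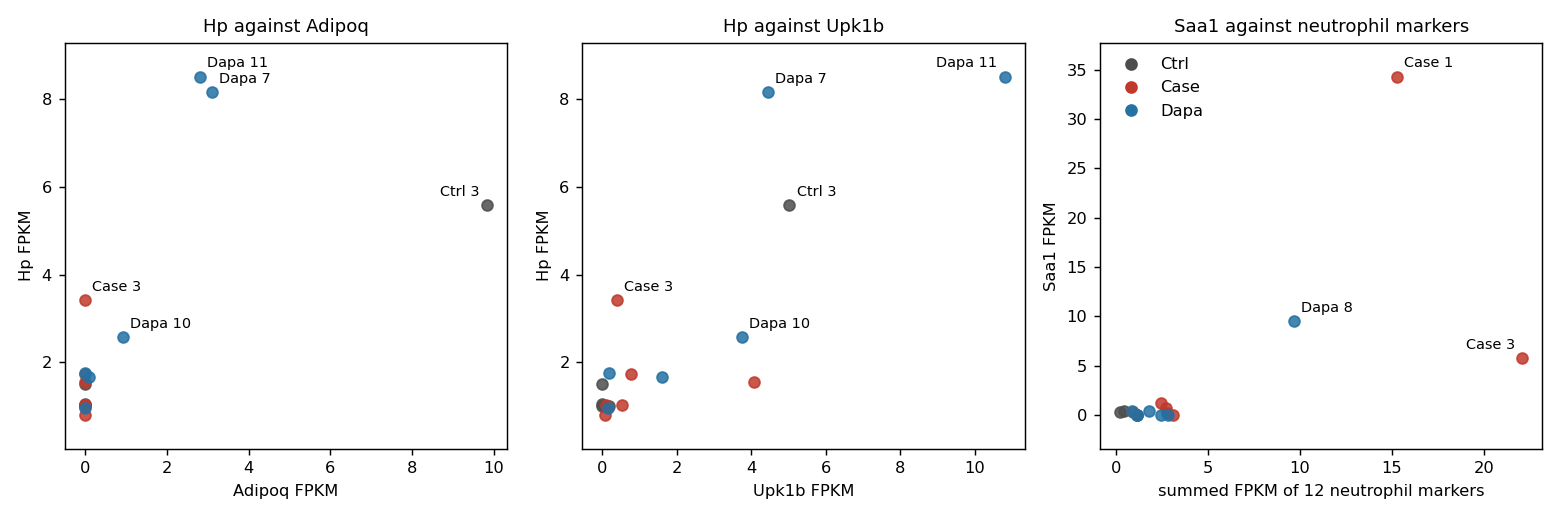
FPKM of Hp against Adipoq (left) and Upk1b (middle) and FPKM of Saa1 against the summed FPKM of 12 neutrophil markers (right), 1 point per mouse, linear axes. Dapa 7, Dapa 11 and Ctrl 3 have Hp of 8.16, 8.51 and 5.59 and are the mice with Adipoq above 2, and Case 1, Case 3 and Dapa 8 are the mice with Saa1 above 5 and neutrophil sums above 9.

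The genes most like each member were sought among those with a mean of at least 1 FPKM, by Spearman's rho over the 17 mice after group means were subtracted. For Hp they were Upk1b (0.83) and Upk3a (0.80), uroplakins of the urothelium that lines the renal pelvis. Upk1b was at 5.02 FPKM in Ctrl 3, 4.45 in Dapa 7, 3.75 in Dapa 10, 10.8 in Dapa 11 and 4.07 in Case 6, and at most 1.60 in the other mice, so the mice with high Hp had both adipocyte and urothelial transcripts. Case 6 had Upk1b without a high Hp (1.55). For Orm1 they were Glis3 (0.80) and Ly6d (0.79), and Ly6d too was highest in Ctrl 3 (5.12) and Dapa 11 (3.47).

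For Saa3 the most alike genes were Saa1 (0.94) and Snd1 (0.81), for Saa2 Saa1 (0.84) and Apoh (0.81), and for Saa1 Snrnp35 (0.83) and Fgf1 (0.82). By Pearson's r those of Saa1 were the fibrinogen gene Fgb (0.92) and Lrg1 (0.90). For Serpina3n they were Snd1 (0.93) and Lrg1 (0.90), and for Lrg1 the apolipoprotein genes Apoe (0.91) and Apoa4 (0.90). Cp was closest to Myl12b and Serpina1f (both 0.93), Lbp to Slc35g1 (0.84) and Phf6 (0.82), and Osmr to Ier5 (0.90) and to C1qc (0.88), a complement gene of macrophages. C1qc was at 13.3 FPKM in Case 3 and 2.03 to 4.77 in the other mice. The choice depended on the measure: with Pearson's r or without subtracting group means, 15 of 20 searches returned neither of the 2 genes.

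Related lists were examined for the same comparisons. Among 36 other acute phase genes 19 were tested in Case against Ctrl, and 8 were called higher and 0 lower. Of all genes tested, 6.09% were called higher and 6.91% lower, and the counts of the other lists in this comparison are read against these shares too. A gene that is low in Ctrl can pass the count filter through the Case mice alone. The counts of calls are therefore a description and no support for a list as a group. The median log2 fold change of the list was 0.97 beside 0.03 over all genes. Lcn2, which encodes the iron-siderophore binder lipocalin-2, was higher by 4.60 ± 1.00 (SE, q = 0.0123), from 0.172 ± 0.120 (SD, n = 5) to 4.62 ± 5.83 FPKM (SD, n = 6). The fibrinogen chain gene Fgg was higher by 3.88 ± 0.86 (SE, q = 0.0134), with 373 FPKM in Case 1, 132 in Case 3, 9.95 to 40.8 in the other 4 Case mice and 4.22 to 9.13 in Ctrl, and the complement gene C3 by 3.32 ± 0.66 (SE, q = 0.00774). Lcn2 was at 6.61 in Case 1, 15.4 in Case 3 and 8.07 in Dapa 8, the 3 mice with high Saa1, and at 0.0521 to 3.90 in the others. Its counts were 4 to 29 in Ctrl and 27 to 1225 in Case, so it passed the filter through the Case mice. C3 was at 17.5 to 246 in Case and 4.90 to 10.1 in Ctrl, without overlap.

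Of 28 genes tested from 35 of the gp130 and interleukin-1 pathways, 7 were called higher and 1 lower in Case against Ctrl, with a median log2 fold change of 0.24. The largest were the immediate early gene Junb (1.31 ± 0.26 SE, q = 0.00821), the NF-kB regulator Nfkbiz (1.04 ± 0.26, q = 0.0230) and the STAT target kinase gene Pim1 (0.93 ± 0.18, q = 0.00566). Il6st, which encodes gp130, the partner of the Osmr product, was the 1 lower. Of 17 tubular injury genes tested from 20, 7 were called higher and 0 lower (median 0.73), led by Lcn2, which is also in the acute phase list, Cxcl1 (2.84 ± 0.55, q = 0.00688) and Spp1 (2.52 ± 0.41, q = 0.00248).

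Of 19 iron and heme genes tested from 21, 3 were called higher and 2 lower in Case (median 0.00). Trf, the iron carrier transferrin, was higher by 1.33 ± 0.33 (SE, q = 0.0210), Tfr2, a transferrin receptor, by 1.31 ± 0.39 (q = 0.0442), and Lrp2, the tubular uptake receptor megalin, had a log2 fold change of −0.98 ± 0.17 (q = 0.00406). Of 9 genes tested from 10 that fall in plasma during the acute phase response, 1 was called in Case, and it was Trf, which was higher.

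In Dapa against Case none of the genes in these 5 lists had a q under 0.05 in the edgeR fit. An unadjusted p under 0.05 was reached by 5 of 20 other acute phase genes, 2 of 28 pathway genes, 3 of 17 injury genes, 4 of 19 iron and heme genes and 2 of 9 negative acute phase genes, beside 12.9% of all genes. Median log2 fold changes were −0.38, −0.13, −0.21, −0.19 and 0.22 in that order.

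In Dapa against Ctrl 6 of 21 other acute phase genes were called higher and 0 lower, beside 14.2% of all genes called higher and 14.9% lower. The limit of the count filter holds here too, since genes low in Ctrl can pass it through the Dapa mice. Lcn2 was higher by 3.56 ± 0.79 (SE, q = 0.00584), C3 by 2.03 ± 0.31 (q = 0.000857) and the metallothionein gene Mt1 by 1.75 ± 0.24 (q = 0.000539). Fgg, called in Case, was not among the 6. Of 28 pathway genes 9 were called higher and 3 lower, with Junb (1.26 ± 0.17, q = 0.000539), Pim1 (1.05 ± 0.18, q = 0.00165) and the feedback inhibitor gene Socs3 (0.86 ± 0.25, q = 0.0211) the largest. Of 16 injury genes 7 were called higher and 1 lower, led by Lcn2, Spp1 (1.55 ± 0.24, q = 0.000935) and the keratin gene Krt18 (1.36 ± 0.28, q = 0.00365). Of 19 iron and heme genes 2 were called higher and 4 lower, among them Lrp2 (−1.25 ± 0.18, q = 0.000557), the heme oxygenase gene Hmox1 (−0.91 ± 0.25, q = 0.0164) and Trf (0.74 ± 0.24, q = 0.0364). Of 9 negative acute phase genes 2 were called higher, Trf and the retinol carrier gene Rbp4 (1.43 ± 0.44, q = 0.0277).

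**Figure D5:**
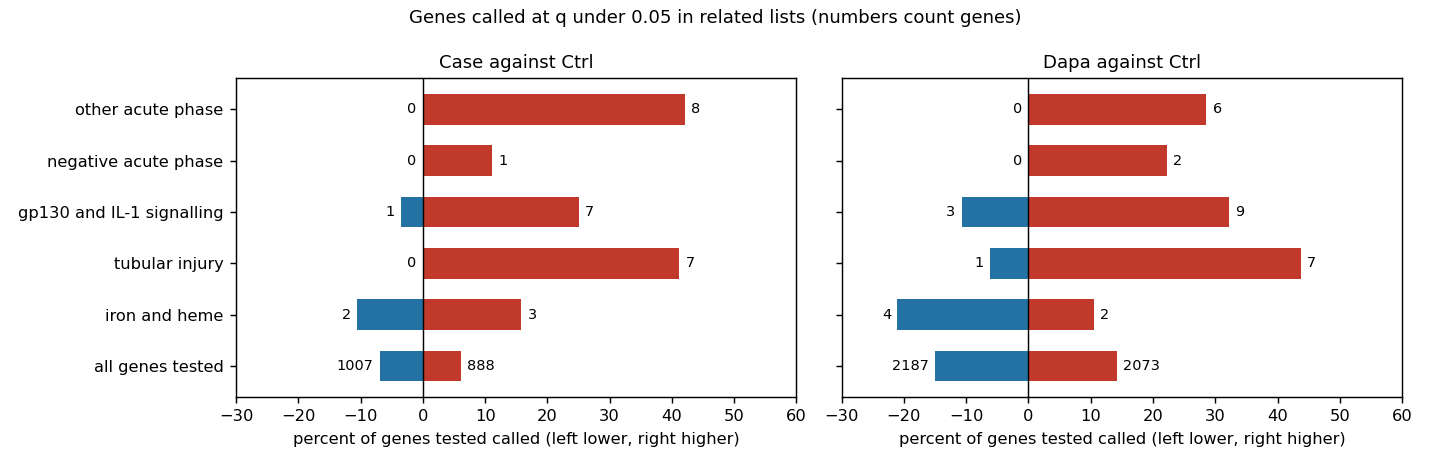
Percent of the genes tested in each related list, and of all genes tested, that were called at q under 0.05 lower (left, blue) or higher (right, red), with the number of genes beside each bar, in Case against Ctrl and Dapa against Ctrl. In the other acute phase list 8 of 19 and 6 of 21 genes were called higher and 0 lower, and in Dapa against Case no list had a call. Genes low in Ctrl could pass the count filter through the db/db mice alone.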

How the data were processed

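RNA of whole kidneys was sequenced in 17 mice. As the paper describes, the authors aligned reads to mm10 with HISAT2 and counted them with Stringtie. The authors deposited counts and FPKM values for each gene and mouse. FPKM followed count, library total and gene length (largest deviation 0.00274% at 50 counts or more) and so held no TMM factor. The table gave 22561 genes, of which 3 with broken entries were left out. The libraries held 13039535 to 17779635 counts, no 2 libraries of a group were duplicates, and genes below about 10 counts have a large counting error.

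Groups were those of the labels. Counts were compared with edgeR 4.0.16 in R 4.3.3 (filterByExpr, TMM factors and the quasi-likelihood test with q-values by Benjamini-Hochberg, each fit on its own 2 groups), and a gene was called at q under 0.05. The values in the text named q come from this fit unless another tool is named. Members that failed the filter were compared by exact permutation on log2(FPKM + 1). Each mouse was taken as 1 animal, and p-values measure the spread between these mice.

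Results were recomputed with edgeR's exact test, DESeq2 1.42.0, limma 3.58.1 on log2(FPKM + 1) and log2(FPKM + 0.1), exact permutation, other size factors, other filters, 1 fit of all groups, a term for 7 libraries, a fold above 2, a block for replicate numbers, and leaving out single mice. Once the values had been seen, a fit without the mice with Adipoq above 0.5 FPKM was added. The edgeR test was checked on simulated counts. All members are named, and of each related list up to 3 called genes with the largest change. The members and lists were chosen with earlier results of these data known.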

Additional observations from a re-analysis of the deposited data

Results flagged for a closer look

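In 9 of the 29 combinations of member and group with any spread, the highest mouse stood further from the next than Dixon's criterion allows at the 95% level. For normally distributed values the criterion is met, at either end, about 1 time in 20. FPKM of low counts are skewed, so this rate cannot be set against the 9 of 29. The members of a mouse share its library, so these are not 9 separate events.

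Saa1 was at 34.3 FPKM in Case 1, with 5.78 in the next Case mouse, and at 9.55 in Dapa 8, with 0.445 in the next Dapa mouse. Dapa 8 was also apart in Saa2 (0.611, next 0.220) and Saa3 (1.52, next 0.127), and Case 1 in Lrg1 (16.7, next 5.63). Hp was at 5.59 in Ctrl 3 (next 1.51) and at 3.42 in Case 3 (next 1.73). Orm1 was at 1.46 in Ctrl 3 (next 0.573) and at 2.00 in Dapa 11 (next 0.820). Without its highest mouse, Saa1 had a mean of 1.59 in Case and 0.165 in Dapa, Lrg1 of 2.61 in Case, and Hp of 1.14 in Ctrl and 1.23 in Case.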

How the results depend on the processing

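In Case against Ctrl the number of members called was 2. With DESeq2 it was 3 (Cp, Osmr and Saa1). It was 0 with the exact permutation test over all genes and 0 without the mice with Adipoq above 0.5 FPKM, which leaves out Ctrl 3. It was 1 with limma on log2(FPKM + 1), 1 with the term for the 7 libraries and 1 with a fold above 2 as well. With the replicate block, which can hold only Case and Ctrl mice 1 to 5, it was 0, with a q of 0.148 for Cp and 0.102 for Osmr. Deviations of same-numbered mice correlated at −0.0485 to −0.0589, so these mice share only a number. Leaving out 1 mouse gave 0 to 2 calls. In Dapa against Case it was 0, and 1 (Osmr) with DESeq2 and 1 with edgeR's exact test. In Dapa against Ctrl it was 2, and 1 with all groups in 1 fit, 1 with at least 10 counts in every sample, 1 with the term for the 7 libraries, 1 with a fold above 2 as well, 0 with the exact permutation test and 0 without the mice with Adipoq above 0.5 FPKM. Leaving out 1 mouse gave 0 to 3. Lbp was called as well by both limma fits (q of 0.0402 and 0.0429) and without Ctrl 4 (0.0434). Fewer mice in a fit lower its power, and the cause of the other differences was not tested.

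Directions turned in values that were not called. In Case against Ctrl the log2 fold change of Hp was 0.39 without the Adipoq mice and −0.80 to 0.39 with 1 mouse left out. In Dapa against Case that of Hp was −0.14 without the Adipoq mice, that of Lbp −0.18 to 0.01 and that of Lrg1 −1.16 to 0.12 with 1 mouse left out. In Dapa against Ctrl the difference in mean log2(FPKM + 1) was −0.03 to 0.65 for Saa1, −0.07 to 0.08 for Saa2 and −0.05 to 0.26 for Orm1 with 1 mouse left out, and −0.01 for Saa2 with a pseudocount of 0.1. Of the alternatives for the fold changes of tested members, 105 of 125, 144 of 149 and 123 of 137 kept direction and side of the threshold in the 3 comparisons, and 151 of 185 for members that failed the filter.

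Over all genes, Case against Ctrl gave 1895 calls, 699 with the replicate block, 1219 with the term for the 7 libraries, 1002 without the Adipoq mice and 0 by exact permutation. Dapa against Case gave 0 calls, 200 with DESeq2, 129 with the exact test, 5 with all groups in 1 fit and 7 without Dapa 7. Dapa against Ctrl gave 4260, and 1650 without the Adipoq mice. With limma on log2(FPKM + 1), which has no TMM factor, 1044 of 1767 calls in Case and 2918 of 4406 in Dapa against Ctrl were higher, beside 888 of 1895 and 2073 of 4260.

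Saa2, Saa3 and Orm1 had at most 21 counts in a library, so their values carry a large counting error.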
